A study of Mus musculus with 25 samples.

Results

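The levels of 10 transcription factors that set or mark the cell lineages of secretory glands were followed in salivary glands of the male C57BL/6.NOD-Aec1Aec2 mouse, a strain that develops a disease like Sjögren's syndrome. The members were taken by gene symbol from the array's probe annotation: Bhlha15, Sox10, Spdef and Etv1 of secretory cells, Sox2, Sox9 and Etv5 of progenitor cells, and Ehf, Elf3 and Runx1 of ducts and other epithelium. Probe sets with 1 gene symbol gave 18194 genes, and 9 of the 10 members were among them, with 24 probe sets. For Etv1 no level is given, because its 3 probe sets carry another gene symbol as well. Each of the 9 measured members had at least 1 expressed probe set (mean log2 level over the 25 arrays above 3.27, the median of all probe sets).

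Salivary glands are built by branching of an epithelial bud. Fibroblast growth factors from the surrounding mesenchyme drive this growth, and the ETS factors Etv1 and Etv5 act downstream of those signals. Sox9 marks progenitors at the tips of the branches, Sox2 marks progenitors of acini in the mouse sublingual gland, and Sox10 acts in acinar and myoepithelial cells and also in Schwann cells of the nerves. Bhlha15, also called Mist1, organises the secretory apparatus of acinar cells, while Spdef drives mucous secretory cells in mouse airway and gut. Ehf and Elf3 belong to the epithelium-specific ETS factors, and Runx1, a partner of the core-binding factor Cbfb, is best known from blood cells and also acts in epithelia.

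The study had 25 arrays, 1 per mouse, with 5 mice at each of 5 ages: 4, 8, 12, 16 and 20 weeks. All mice were C57BL/6.NOD-Aec1Aec2 males, in which the Aec1 (Idd3) region of chromosome 3 and the Aec2 (Idd5) region of chromosome 1 come from the NOD mouse on a C57BL/6 background, and none was treated. The stages named for these ages run from pre-disease at 4 weeks, through the pre-clinical stage and the first influx of leukocytes, to secretory dysfunction at 20 weeks. Every group carries the same alleles, so age and disease stage cannot be told apart in these arrays, and C57BL/6J mice were not analysed here. Each RNA sample held lobes of the submandibular, sublingual and parotid glands together, so the makeup of the 3 glands and of their cell types enters every level. In such bulk RNA, fewer cells of a type and less RNA per cell cannot be told apart. A level is the mean log2 value of a gene's expressed probe sets, and levels of different probe sets were not set against each other.

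The arrays carried the labelled tissue: Prol1, a submandibular secretory product, lay between 14.95 and 15.49 on the log2 scale in all 25, and the acinar water channel Aqp5 between 10.09 and 11.81. Products of single glands differed between arrays. The parotid product Amy1 ranged from 8.42 to 16.00, and the mean of 3 expressed sublingual products (Dcpp1, Dcpp3 and Galnt12) lay between 10.43 and 11.30 in 23 arrays, but at 5.82 in 16-week mouse 5 and at 8.19 in 20-week mouse 3. That 20-week mouse also stood apart over all expressed genes, with a median correlation to its age group of 0.802, against at least 0.953 for each other array. The 16-week differences of Sox2, Spdef, Sox10 and Sox9 are given with and without both arrays low in these products. Other differences, medians and counts include both unless said. Markers of leukocytes (14 of 15 listed genes measured) averaged between 4.49 and 7.84, with both highest values in 16-week mice 3 and 4, and none of the 14 passed the test at any age. Genes of dividing cells and of connective tissue separated the 4-week glands from all later ones. The list of dividing cells lay at 3.13 to 4.02 from 8 to 20 weeks, against 4.79 to 5.73 at 4 weeks, and the connective tissue list at 6.25 to 7.43, against 8.18 to 8.53 at 4 weeks.

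The promoters of Elf3, Spdef, Sox2 and Bhlha15 are shown because the results below turn on these genes, Elf3 as the member that passed the test, Spdef and Sox2 as the pair that dropped in the same mice, and Bhlha15 as the member that varied together with Sox10 and Ehf. RefSeq (GRCm38.p6) gave a promoter for 7 of the 10 members, as 250 bases before to 50 after the start. Capitals mark the letters that the gene's own family is known to bind: GGAA or its complement TTCC for the ETS factors, ACAAAG or ACAATG or their complements for SOX factors, and the E-box CANNTG, which reads the same on both strands, for Bhlha15. None of the marked letters overlaps a match of another of these motifs or of the RUNX letters TGTGGT.
Elf3, chr1:135258423-135258722, minus strand: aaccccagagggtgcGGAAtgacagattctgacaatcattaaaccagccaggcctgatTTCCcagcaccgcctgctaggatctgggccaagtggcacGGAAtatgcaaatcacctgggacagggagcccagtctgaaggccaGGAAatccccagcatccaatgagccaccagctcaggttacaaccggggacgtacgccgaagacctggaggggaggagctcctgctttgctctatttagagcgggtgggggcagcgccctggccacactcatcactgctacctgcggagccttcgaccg
Spdef, chr17:27728902-27729201, minus strand: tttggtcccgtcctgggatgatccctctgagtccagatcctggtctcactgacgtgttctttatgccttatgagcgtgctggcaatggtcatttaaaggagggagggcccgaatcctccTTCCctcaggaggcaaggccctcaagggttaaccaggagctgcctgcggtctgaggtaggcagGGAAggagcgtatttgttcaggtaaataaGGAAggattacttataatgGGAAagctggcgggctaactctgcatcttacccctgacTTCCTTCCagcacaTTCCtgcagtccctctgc
Sox2, chr3:34649745-34650044, plus strand: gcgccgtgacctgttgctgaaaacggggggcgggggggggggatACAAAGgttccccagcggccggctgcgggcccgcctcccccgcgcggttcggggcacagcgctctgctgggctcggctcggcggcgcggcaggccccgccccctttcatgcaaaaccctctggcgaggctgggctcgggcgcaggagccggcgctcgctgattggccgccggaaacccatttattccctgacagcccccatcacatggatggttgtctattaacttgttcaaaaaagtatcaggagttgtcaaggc
Bhlha15, chr5:144190036-144190335, plus strand: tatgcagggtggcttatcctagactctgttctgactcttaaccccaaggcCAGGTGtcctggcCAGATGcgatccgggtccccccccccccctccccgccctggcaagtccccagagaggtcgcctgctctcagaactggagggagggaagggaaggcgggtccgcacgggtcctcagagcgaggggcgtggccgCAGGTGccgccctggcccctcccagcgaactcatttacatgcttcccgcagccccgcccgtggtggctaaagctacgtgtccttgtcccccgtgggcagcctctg
The ETS letters occur 4 times in the Elf3 promoter and 7 times in that of Spdef, but 96.0% of 32851 promoters hold them at least once. The Bhlha15 promoter holds 3 E-boxes (72.3% of promoters hold 1 or more), and the Sox2 promoter holds 1 SOX match (28.6% of promoters). None of the 4 holds TGTGGT or its complement, which 16.8% of promoters hold. These matches describe the letters of each window and say nothing of binding.

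Elf3 was the only member whose level differed from that at 4 weeks by the test used: it was higher at 12 and at 20 weeks, about 1.34-fold and 1.35-fold. No member passed lower at any age on the deposited values. After quantile normalization of the arrays Elf3 passed at no age, while Sox10 passed lower at 8, 12 and 16 weeks and Spdef lower at 16 and 20 weeks. All 25 arrays were fitted together in limma, and a gene passed where the p adjusted over all 18194 genes was under 0.05. At 8 weeks no member passed, while 1.48% of all genes passed higher and 0.78% lower. At 12 weeks 1 of 9 members passed higher, beside 5.66% of all genes higher and 1.36% lower. Of the genes that passed, 65.5% were higher at 8 weeks and 80.6% at 12 weeks, which became 47.4% and 56.7% after quantile normalization and 37.0% and 54.7% with each array's upper quartile as a covariate. At 16 weeks no member passed, beside 1.71% of genes higher and 1.68% lower, and at 20 weeks again 1 of 9 passed higher, beside 1.14% higher and 1.52% lower. The test of any change over the 5 ages (moderated F-test) was passed by none of the 9 and by 4.66% of all genes. At an unadjusted p under 0.05 it was passed by 3 of 9 members and by 18.6% of all genes. The B-statistic of the study's methods, for polynomial terms of age, was past its threshold of 1.5 for none of the 9 and for 1.92% of all genes.

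**Figure D1:**
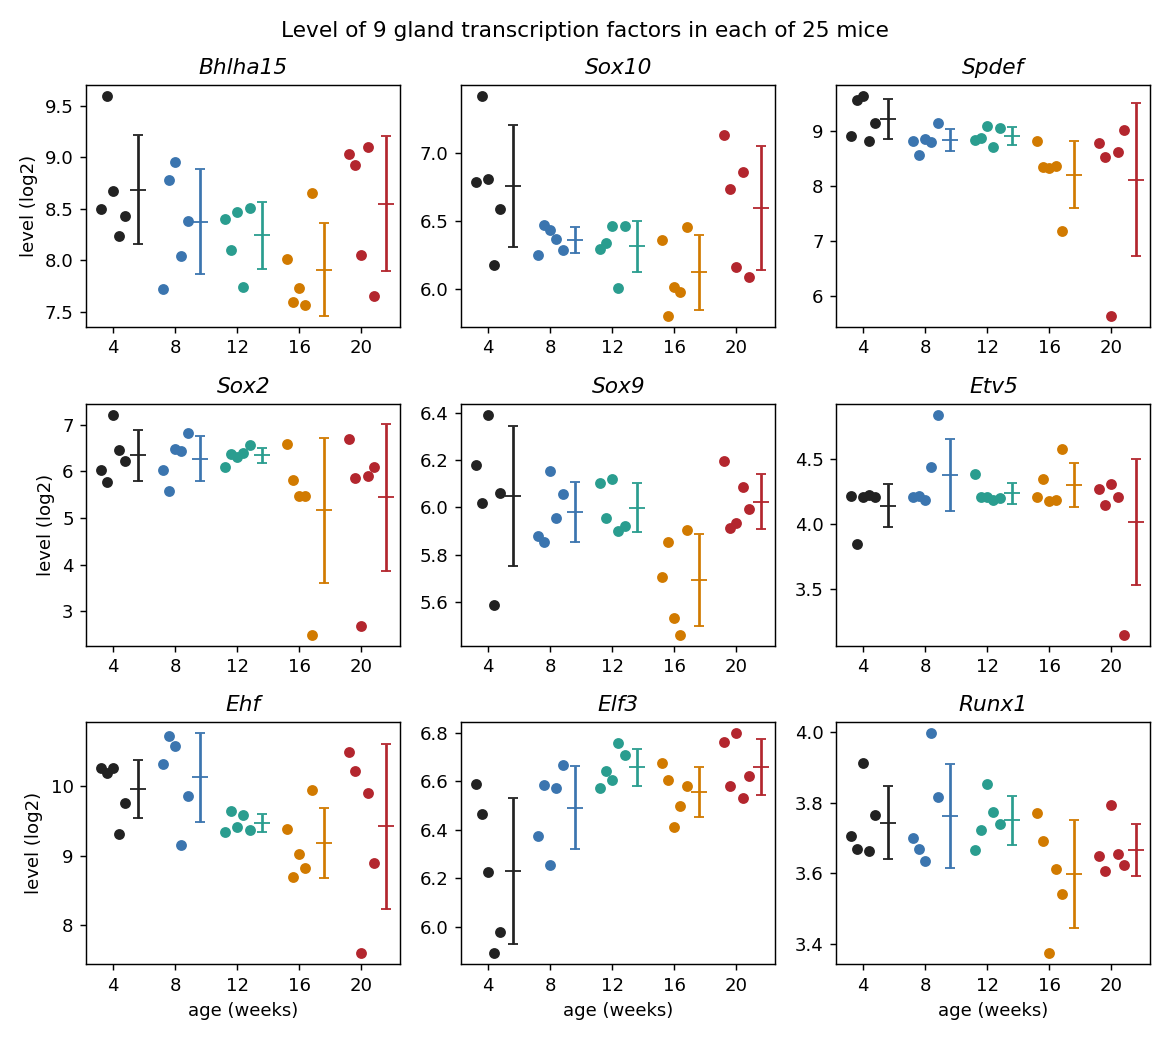
Levels (log2, vertical axis) of the 9 measured members in each of 25 mice by age in weeks (horizontal axis), with the mean and SD of 5 mice beside the points. Elf3 lies between 6.57 and 6.76 at 12 weeks against 5.89 to 6.59 at 4 weeks, and Sox2 has 2 mice at 2.50 and 2.69 while all others lie at 5.47 or above.

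Elf3, an epithelium-specific ETS factor, was measured by 1 probe set. Its levels in the 5 mice of each age were 6.59, 6.47, 6.23, 5.89 and 5.98 at 4 weeks, 6.38, 6.59, 6.25, 6.57 and 6.67 at 8 weeks, 6.57, 6.64, 6.60, 6.76 and 6.71 at 12 weeks, 6.68, 6.61, 6.41, 6.50 and 6.58 at 16 weeks, and 6.76, 6.58, 6.80, 6.53 and 6.62 at 20 weeks. Mice 3, 4 and 5 of the 4-week group lay below every mouse of 8 to 20 weeks, and mice 1 and 2 overlapped with later mice. The leukocyte list read 5.33, 6.14 and 5.89 in mice 3 to 5, against 4.70 and 4.50 in mice 1 and 2. The lymph node list (2 expressed genes) read 6.13, 7.82 and 6.52, against 3.43 and 3.51. It was also high in 8-week mouse 4 (5.88), 16-week mice 3 and 4 (7.82 and 7.20) and 20-week mouse 3 (6.80). The paper's methods state that salivary lymph nodes were left out of the lobes. The part of lymph node tissue in the Elf3 difference was not tested. The mean was 6.66 ± 0.08 at 12 weeks and 6.23 ± 0.30 at 4 weeks (SD, n = 5 each), a log2 difference of 0.43 (SE 0.11, adjusted p 0.019). At 20 weeks it was 6.66 ± 0.12 (SD, n = 5), and the difference to 4 weeks was again 0.43 (SE 0.11, adjusted p 0.0316). Its differences of 0.26 at 8 weeks and 0.32 at 16 weeks missed the threshold (adjusted p 0.252 and 0.116), as did the F-test (adjusted p 0.0659). The calls depended on single mice of 4, 12 and 20 weeks, on the scaling and on settings of the fit given in the last section. Without 4-week mouse 4, the lowest, the difference was 0.34 at 12 weeks (adjusted p 0.0719) and 0.34 at 20 weeks (adjusted p 0.0926). The 12-week call was also lost without 12-week mouse 4 (adjusted p 0.0546), and the 20-week call without 4-week mouse 3 (0.071), 4-week mouse 5 (0.0856), 20-week mouse 1 (0.0783) or 20-week mouse 5 (0.0522). After quantile normalization of the arrays the differences were 0.09 at 12 weeks (adjusted p 1) and 0.42 at 20 weeks (adjusted p 0.298), and the one at 8 weeks was -0.03.

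On the deposited scale the list of 14 ductal genes, which holds keratins, tight-junction genes and sodium channel subunits, was higher at 12 weeks, as Elf3 was. The median log2 difference of its genes to 4 weeks was 0.75, 0.90, 0.32 and -0.04 at 8, 12, 16 and 20 weeks. Its mean level per mouse was 9.45 to 9.74 at 12 weeks, against 7.89 to 9.20 at 4 weeks. At 20 weeks it was 7.31 in mouse 3 but 9.23 to 9.68 in the other mice, all above the 4-week mice. The 20-week median includes mouse 3, and none was taken without it. The lowest ductal level at 4 weeks was that of mouse 4, which was also lowest in Elf3. At 12 weeks 3 of the 14 passed higher and none lower, beside 5.66% of all genes higher and 1.36% lower. The 3 were Cftr, Scnn1b and Cldn7, the last named after its values were seen. No value of the list was taken after quantile normalization, where Elf3 itself differed by 0.09 at 12 weeks. Cftr, a chloride channel of duct cells, rose by 0.89 at 12 weeks (adjusted p 0.0388), and Scnn1b, a sodium channel subunit, by 0.94 (adjusted p 0.037). Cftr was also the only gene of the list that passed higher at 8 weeks (0.99, adjusted p 0.0449) and at 20 weeks (1.28, adjusted p 0.00714), and none passed higher at 16 weeks, where Elf5 passed lower (-0.71, adjusted p 0.0433). Of all genes, 1.48% passed higher at 8 weeks, 1.14% higher at 20 weeks and 1.68% lower at 16 weeks. The 14 genes were all expressed by the rule above. In 20-week mouse 3 the ductal level was 7.31 while Elf3 was at 6.80, the highest value of the series. The part of duct cells in the Elf3 difference was not tested.

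**Figure D2:**
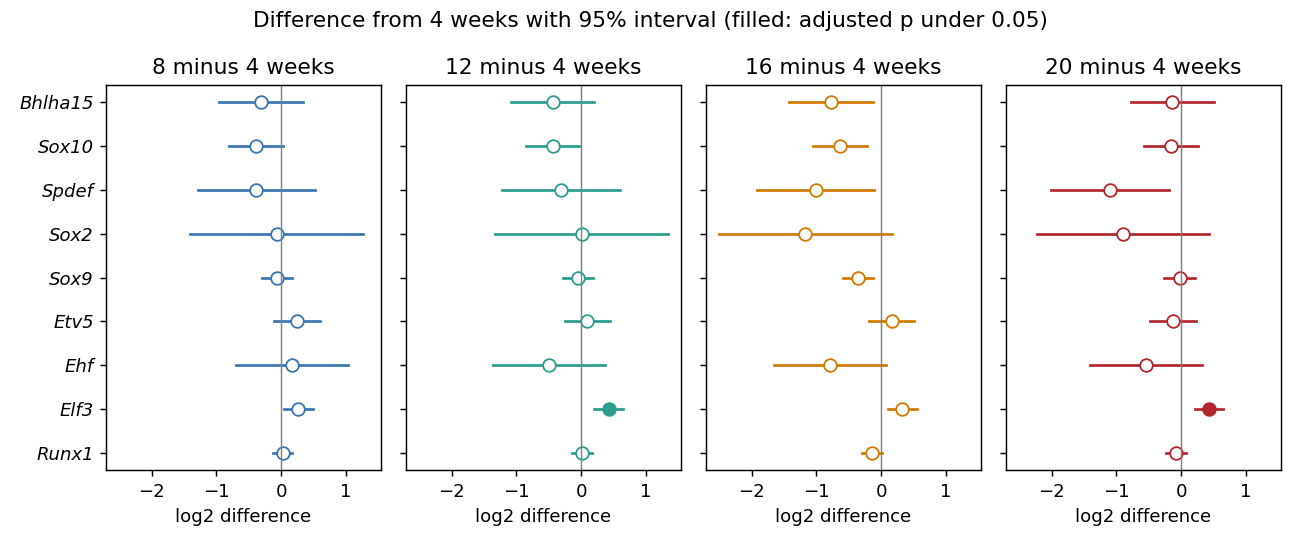
Log2 difference of each member at 8, 12, 16 and 20 weeks minus 4 weeks (points, horizontal axis) with its 95% interval from the limma fit (lines), where filled points passed an adjusted p under 0.05. The filled points are those of Elf3 at 12 and 20 weeks, at 0.43 each, while at 16 weeks 7 of 9 points lie below 0.

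At 16 weeks 7 of the 9 members lay below their 4-week mean, with a median log2 difference of -0.64 over the 9, against -0.01 over all genes. None of the 7 passed after adjustment over all genes. At an unadjusted p under 0.05 stood 5 of 9 members, beside 14.4% of all genes. Those 5 were Sox10, Sox9, Bhlha15, Spdef and, in the other direction, Elf3. At 20 weeks 8 of 9 members lay below their 4-week mean, but the median was -0.14, against 0.04 over all genes.

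Sox10 showed the lowest p of the lower members. Its levels were 6.36, 5.80, 6.02, 5.98 and 6.45 in the 16-week mice, against 6.79, 7.42, 6.81, 6.17 and 6.59 in the 4-week mice, so the groups overlapped through 4-week mouse 4. The log2 difference was -0.64 at 16 weeks (95% interval -1.05 to -0.22, adjusted p 0.0912). It was -0.39, -0.44 and -0.16 at 8, 12 and 20 weeks (adjusted p 0.395, 0.204 and 0.811). After quantile normalization Sox10 passed lower at 8, 12 and 16 weeks, with -0.59, -0.68 and -0.71 (adjusted p 0.0313, 0.0085 and 0.00504), and with the upper quartile as a covariate with -0.64, -0.69 and -0.68 (adjusted p 0.0497, 0.0166 and 0.00758). It also passed at 16 weeks without 4-week mouse 4 (-0.78, adjusted p 0.0327). At 8 and 12 weeks the mice spanned 6.25 to 6.47 and 6.00 to 6.46, a narrower spread than at 4 weeks (6.17 to 7.42) and at 20 weeks (6.09 to 7.13). Lists of the cells that use Sox10 stood as follows. The acinar list (7 expressed genes, among them Aqp5, Ano1 and Slc12a2) averaged 8.70 to 9.78 at 16 weeks and 9.32 to 9.98 at 4 weeks. Its 8 measured genes had a median log2 difference of -0.48, and none passed at 16 weeks. The Schwann cell list (6 expressed genes) averaged 6.04 to 6.57 at 16 weeks and 5.86 to 6.42 at 4 weeks, and the myoepithelial list (7 expressed genes) 9.18 to 10.29 at 16 weeks and 7.92 to 9.43 at 4 weeks. The part of these cells in the Sox10 difference was not tested.

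The 3 probe sets of Sox10 did not give the same answer. Probe set 1451689_a_at read 9.21, 8.37, 8.73, 8.61 and 9.10 in the 16-week mice, against 9.70, 10.45, 9.84, 9.24 and 9.67 in the 4-week mice, with no overlap. Tested singly among 34958 probe sets, it fell by 0.98 on the log2 scale at 16 weeks (SE 0.18, adjusted p 0.00398) and by 0.71 at 12 weeks (SE 0.18, adjusted p 0.0237), and it passed the F-test (adjusted p 0.0261). The remaining probe sets of Sox10, 1424985_a_at and 1425369_a_at, differed by -0.51 and -0.41 at 16 weeks (adjusted p 0.449 and 0.544). The gene's level averages all of them.

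Of the 24 probe sets of the members, 3 passed lower at 16 weeks, beside 1.16% of all probe sets, 1 passed lower at 12 weeks (0.99%), and 1 passed the F-test (3.01%). The other two at 16 weeks were 1424950_at of Sox9, with a difference of -0.54 (adjusted p 0.0476), and 1422864_at of Runx1, with -0.70 (adjusted p 0.0404). The Runx1 probe set averaged 3.16 over the arrays, under the expression threshold of 3.27, and read 2.80, 3.08, 2.72, 2.71 and 3.03 in the 16-week mice, against 3.24, 3.30, 3.48, 3.84 and 3.99 in the 4-week mice. With 1451689_a_at of Sox10 it made 2 of 24 probe sets that lay wholly below the 4-week mice, beside 1.89% of all probe sets. For Ehf, an epithelium-specific ETS factor, the probe sets parted: 1419474_a_at differed by -1.60 at 16 weeks (SE 0.48, adjusted p 0.0831), while 1451375_at differed by 0.06 (SE 0.27, adjusted p 0.953). Which transcripts the probe sets read was not tested.

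**Figure D3:**
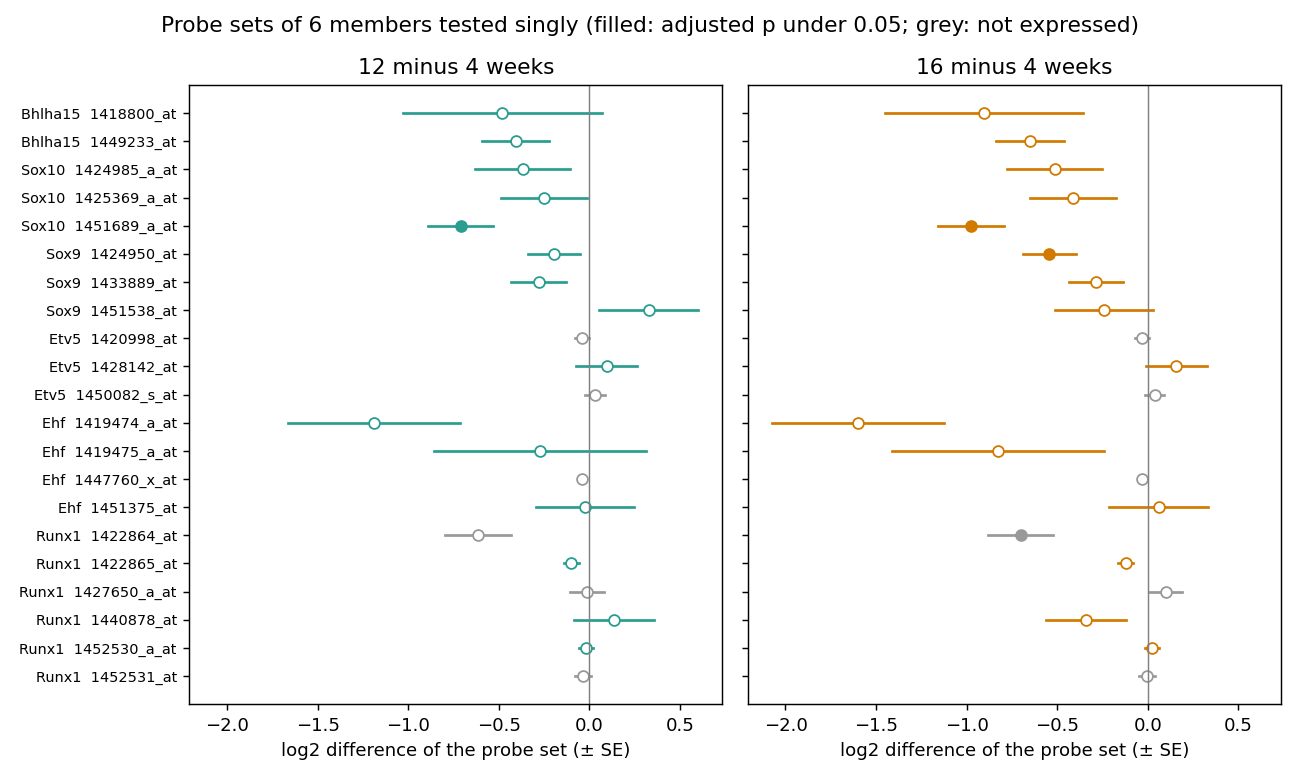
Log2 difference ± SE (horizontal axis) of each probe set of the 6 members with more than 1, at 12 and 16 weeks minus 4 weeks; filled points passed an adjusted p under 0.05, and grey marks probe sets that were not expressed. A probe set of Sox10 is filled at both ages (-0.71 and -0.98), and those of Ehf run from -1.60 to 0.06 at 16 weeks.

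Bhlha15 read 8.01, 7.60, 7.73, 7.56 and 8.65 in the 16-week mice, against 8.50, 9.60, 8.67, 8.23 and 8.43 in the 4-week mice. At 16 weeks mice 1 to 4 lay below all 4-week mice, and mouse 5 lay among them. The log2 difference was -0.78 (SE 0.31, adjusted p 0.217). Its values at 20 weeks were 9.03, 8.92, 8.05, 9.10 and 7.65, a difference of -0.14 to 4 weeks (adjusted p 0.889). The acinar list, lower in median at 16 weeks as given with Sox10, had a median difference of -0.61 at 20 weeks, with none of 8 genes passing. The part of acinar cells in the Bhlha15 differences was not tested.

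Ehf spread widely at 20 weeks, with 10.49, 10.22, 7.59, 9.90 and 8.90. Its 12-week mice lay close together, with 9.34, 9.64, 9.42, 9.58 and 9.37, against 10.27, 10.20, 10.27, 9.32 and 9.76 at 4 weeks. The difference to 4 weeks was -0.49 at 12 weeks and -0.79 at 16 weeks (adjusted p 0.576 and 0.41). At 8 weeks it was 0.17 (adjusted p 0.808), and -0.16 after quantile normalization.

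Sox9 read 5.70, 5.86, 5.53, 5.46 and 5.91 in the 16-week mice, against 6.18, 6.02, 6.39, 5.59 and 6.06 in the 4-week mice. The log2 difference was -0.36 (SE 0.11, adjusted p 0.0951), and without 4-week mouse 4 it was -0.47 and passed (adjusted p 0.00869). In the 20-week mice Sox9 lay at 6.20, 5.91, 5.93, 6.09 and 5.99, all above the 16-week mice, though the highest 16-week mouse and the lowest 20-week mouse were both at 5.91 after rounding. Sox9 was the only member whose groups did not overlap between 20 and 16 weeks, where 0.385% of all genes lay wholly higher at 20 weeks and 0.269% wholly lower. That difference of 0.33 did not pass the fit (adjusted p 0.45). Between successive ages no member passed in any of the 3 comparisons, beside 0.0055% of genes at 12 against 8 weeks, 0.0055% at 16 against 12 weeks and 0.0275% at 20 against 16 weeks.

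Sox2 and Spdef were low in the same pair of mice, the ones that were also low in sublingual products. Sox2 read 6.58, 5.81, 5.47, 5.48 and 2.50 at 16 weeks and 6.70, 5.85, 2.69, 5.90 and 6.09 at 20 weeks, against 6.04, 5.77, 7.22, 6.46 and 6.22 at 4 weeks. All other mice lay between 5.47 and 7.22, so 16-week mouse 5 and 20-week mouse 3 alone fell outside. The log2 difference to 4 weeks was -1.17 at 16 weeks and -0.90 at 20 weeks (SE 0.64, adjusted p 0.439 and 0.699), and without both mice it was -0.51 and -0.21 (SE 0.29, adjusted p 0.356 and 0.733).

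Spdef read 8.83, 8.35, 8.33, 8.37 and 7.19 at 16 weeks and 8.80, 8.54, 5.64, 8.62 and 9.02 at 20 weeks, against 8.93, 9.57, 9.65, 8.82 and 9.16 at 4 weeks. The lowest values were again those of 16-week mouse 5 and 20-week mouse 3. The log2 difference to 4 weeks was -1.01 at 16 weeks and -1.10 at 20 weeks (SE 0.44, adjusted p 0.267 and 0.241). Leaving out 20-week mouse 3 alone narrowed the spread of the fit, and Spdef then passed lower at 16 weeks at the same difference of -1.01 (SE 0.22, adjusted p 0.00713) and by the F-test (adjusted p 0.0363). Without both mice it also passed at 16 weeks, with -0.75 (SE 0.16, adjusted p 0.0085), together with Sox10 (-0.72, adjusted p 0.0392) and Sox9 (-0.41, adjusted p 0.045). Both settings were chosen or singled out with the values known, and 1335 and 1145 of all genes passed at 16 weeks under them, against 618 with all 25 arrays. At 16 weeks the 4 other mice (8.33 to 8.83) overlapped the 4-week mice (8.82 to 9.65) by 16-week mouse 1 only.

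**Figure D4:**
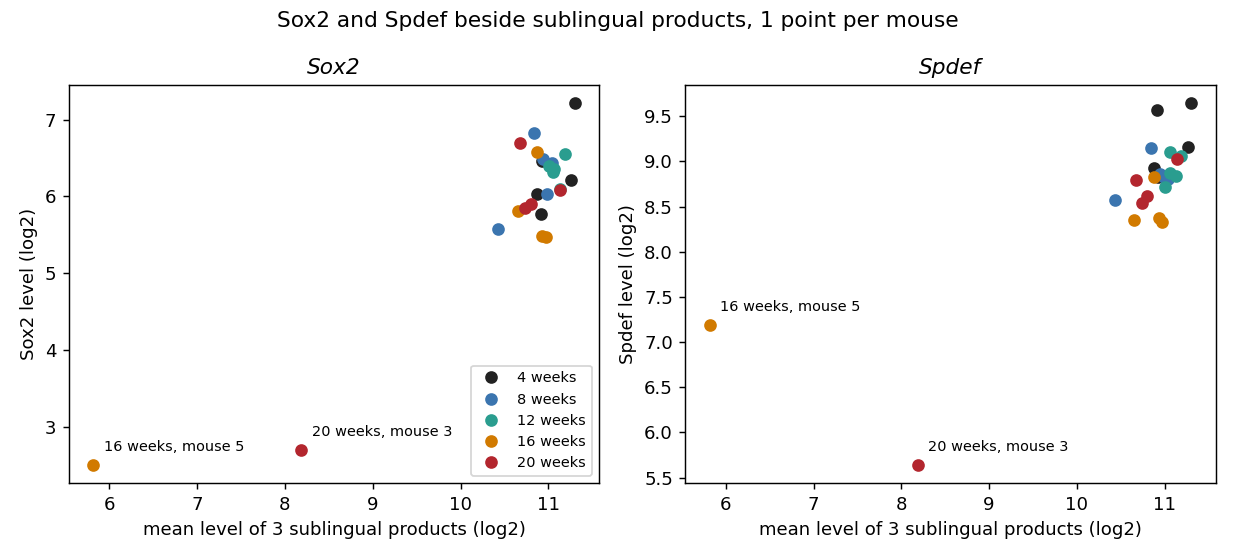
Sox2 level (left, log2) and Spdef level (right, log2) of each mouse against the mean level of 3 expressed sublingual products (horizontal axis, log2), coloured by age. In 23 mice the product level is 10.43 to 11.30, and the labelled mice, 16-week mouse 5 at 5.82 and 20-week mouse 3 at 8.19, have the lowest Sox2 (2.50 and 2.69) and Spdef (7.19 and 5.64).

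Sublingual genes read low in these mice as well. Dcpp3, a demilune cell protein, read 8.29 in 16-week mouse 5 and 12.24 in 20-week mouse 3, against 14.45 to 15.00 in the other 23 mice. Galnt12, an enzyme that starts mucin sugar chains, read 3.88 and 3.64 there, against 7.21 to 8.69 in the other 23. The 5 expressed genes of 10 listed as Spdef targets averaged 5.99 and 5.73 in these mice, against 6.67 to 7.59, and Galnt12 is one of these 5. Prol1 (15.43 and 15.41) and the granular duct list (15.29 and 14.93) stood within the range of the other 23 mice, at 14.95 to 15.49 and 14.42 to 15.31. The list of 5 genes taken as submandibular, Prol1 among them, averaged 8.69 and 9.93, against 10.24 to 13.10. Its genes did not move together, so this mean does not give the amount of submandibular tissue. Of its genes, Lman1l read 4.45 and 4.57 (9.22 to 11.04 in the 23), and Smgc 3.64 and 4.58 (7.19 to 13.12). In 20-week mouse 3 lists of other cells were low too, below all 23. The acinar list read 8.19 there (8.70 to 9.98 in the 23), the listed Bhlha15 targets 6.49 (7.33 to 8.31), the other gland factors 5.52 (6.33 to 7.02), the ductal list 7.31 (7.89 to 9.74) and Aqp5 10.09 (10.71 to 11.81). In 16-week mouse 5 these stood within the range of the 23, at 9.78, 8.07, 6.83, 9.42 and 11.16. The parotid list read 7.50 in 16-week mouse 5, near the low end of the other 23 (7.23 to 13.50), and 13.33 in 20-week mouse 3, near their high end. The myoepithelial list read 10.29 in 16-week mouse 5 and 7.29 in 20-week mouse 3, against 7.92 to 10.18 in the other 23. The part of sublingual or submandibular tissue in the Sox2 and Spdef differences was not tested.

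Neither Etv5 nor Runx1 passed at any age. Etv5, an ETS factor downstream of fibroblast growth factor signals, rested on 1 expressed probe set of 3, and lay within 0.05 of its median of 4.21 in 15 of 25 mice, with a range of 3.15 to 4.84. Its differences to 4 weeks were 0.24, 0.10, 0.16 and -0.13 at 8, 12, 16 and 20 weeks (adjusted p 0.633, 0.731, 0.878 and 0.824). Runx1 ranged from 3.37 to 4.00, over 3 expressed probe sets of 6. It differed by 0.02, 0.01, -0.15 and -0.08 at these ages (adjusted p 0.867, 0.946, 0.379 and 0.774). The lowest Runx1 value was that of 16-week mouse 3, where the leukocyte list stood at 7.74. The highest was that of 8-week mouse 4, where that list stood at 6.315, against 4.49 to 4.79 in the other 8-week mice. The part of leukocytes in the Runx1 levels was not tested.

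Members were also compared with each other over the 25 mice, as 36 pairs, with permutation p-values adjusted over the 36. Mice were permuted across ages, so differences shared by age enter these p-values, and no p was taken within ages. By Pearson's r 7 pairs passed and by Spearman's rho 7, with 6 passing by both, while Spdef with Ehf passed by r alone and Spdef with Sox9 by rho alone. The r of Spdef with Ehf was 0.56 over 25 mice and 0.16 without 20-week mouse 3. The highest was Bhlha15 with Sox10 (r = 0.89, rho = 0.90, permutation p 1.0e-05, the smallest that 100000 resamples give, adjusted p 3.6e-04 for each). It was 0.84 without the 2 mice farthest in Bhlha15, and 0.86 between deviations from the age means. Ehf went with both: r = 0.64 and rho = 0.71 with Bhlha15 (adjusted p 0.00588 and 0.00168), and r = 0.63 and rho = 0.70 with Sox10 (adjusted p 0.00666 and 0.00168). Without the 2 farthest mice these were 0.63 and 0.63, and within ages 0.65 and 0.69. Sox9 was related to Bhlha15 (r = 0.55, rho = 0.58) and to Sox10 (r = 0.58, rho = 0.63) as well (adjusted p 0.0273, 0.0134, 0.022 and 0.00893, by permutation), but less within ages (0.39 and 0.45). Levels from 1 array share its scaling and gland makeup, and the share of passing pairs among all genes was not computed. The counts of pairs therefore do not set the members apart from other genes.

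**Figure D5:**
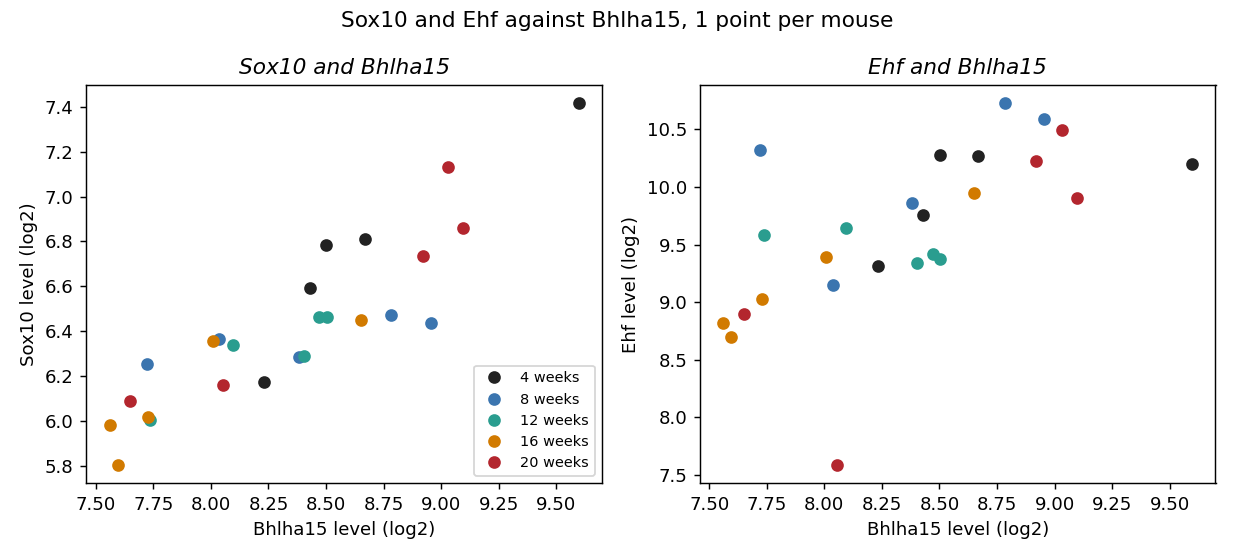
Sox10 level (left, log2) and Ehf level (right, log2) of each of 25 mice against its Bhlha15 level (horizontal axis, log2), coloured by age. Sox10 follows Bhlha15 across ages (rho = 0.90), and Ehf does so less closely (rho = 0.71), with 20-week mouse 3 lowest in Ehf at 7.59.

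Spdef and Sox2 had a rho of 0.62 over the 25 mice (adjusted p 0.00893, permutation), and since 2 mice stood apart, r was taken over the other 23, where it was 0.60. No pair with Elf3 passed (rho between -0.19 and 0.26), and none with Etv5 did (-0.17 to 0.31). Among all expressed genes, those most alike by rho were Ttc7b for Bhlha15 (0.92) and for Sox10 (0.91), Kdelr3, a receptor that returns proteins to the endoplasmic reticulum, for Spdef (0.90), B3gnt6 for Sox2 (0.81), Zfp644 for Ehf (0.97) and Ezh1 for Elf3 (0.84). These genes were picked for their likeness after the values were seen.

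Relatives of the members and genes around them changed in a few cases. Of 20 other ETS factors measured, 1 passed: Elf5, a factor of ductal and alveolar epithelium, fell by 0.71 at 16 weeks (adjusted p 0.0433). Of 16 other SOX factors, Sox18 of endothelial cells fell at all 4 later ages, by 0.74, 0.96, 0.92 and 0.85 (adjusted p 0.0195, 0.00154, 0.00237 and 0.00552). The endothelial list of 6 genes had 3 that fell at 12 weeks, 2 at 16 weeks and 1 at 20 weeks. None of 3 RUNX relatives passed, Cbfb included, with differences of 0.31, -0.12, 0.04 and 0.23.

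Among 11 fibroblast growth factors and their receptors, Fgf9 rose at all later ages, by 1.56, 1.47, 1.38 and 1.00 (adjusted p 0.00142, 0.0014, 0.0026 and 0.032), and Fgf7 rose at 12 weeks by 0.94 (adjusted p 0.0402). Of 11 feedback genes of that pathway, which like Etv5 answer its signals, Dusp4 fell by 1.88 at 16 weeks and by 1.78 at 20 weeks (adjusted p 0.0236 and 0.0372), and Spry2 fell by 0.85 at 12 weeks (adjusted p 0.03). The other 9 did not pass at any age.

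Of 10 genes listed as Bhlha15 targets from mouse exocrine cells, Ccpg1 rose by 0.96, 1.06 and 1.00 at 8, 12 and 16 weeks (adjusted p 0.03, 0.00847 and 0.0174), and Itpr2, a calcium release channel, rose by 1.36 at 12 weeks (adjusted p 0.0109). No other gene of this list passed, and the median difference of the 10 was -0.13, 0.15, -0.19 and -0.16 at 8, 12, 16 and 20 weeks. Bhlha15 itself lay below its 4-week mean at all 4 ages without passing. Of 10 listed Spdef targets, Agr2, a folding enzyme of mucous cells, fell at all later ages, by 0.79, 0.80, 1.14 and 0.89 (adjusted p 0.0379, 0.0179, 0.002 and 0.0163), and Creb3l1, a factor of the secretory pathway, fell by 0.95 at 16 weeks and by 0.91 at 20 weeks (adjusted p 0.0164 and 0.0237).

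Of 30 other gland factors measured, 1 passed higher and 1 lower at 8 weeks, 2 higher and 1 lower at 12 weeks, 2 lower at 16 weeks, and 1 lower at 20 weeks. Id3, an inhibitor of bHLH factors, fell by 0.90, 1.11 and 0.92 at 8, 12 and 16 weeks (adjusted p 0.043, 0.00581 and 0.0289), and Creb3l1 is in this list too. Klf5, an epithelial factor, passed the F-test (adjusted p 0.037) but no comparison with 4 weeks. Atf6, an activator of the unfolded protein response, rose by 0.95 at 8 weeks and by 0.90 at 12 weeks (adjusted p 0.0342 and 0.0242), and stands outside the rule for named genes.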

How the data were processed

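RNA of the pooled salivary gland lobes of 25 mice was read on Affymetrix mouse genome arrays, 1 array per mouse and 5 mice per age. The values deposited by the authors are log2 signals, background-corrected and normalized, of 45101 probe sets on each array. GCRMA is named in the methods and RMA in the submitters' processing notes. These sources give no version. No further scaling was applied, and levels lie between 0.13 and 16.94. Array upper quartiles differ from 5.19 to 5.98, so other scalings were tried. The number of arrays and the signal over background limit the precision.

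Of 35890 annotated probe sets, 34958 carry 1 symbol and were used, and 932 with several (those of Etv1 among them) and 9211 without an annotation entry were set aside. The level of a gene averages its probe sets that are expressed, and every probe set where none is. limma 3.58.1 in R 4.3.3 fitted all 25 arrays with age as the group and no covariate, two-sided, with Benjamini-Hochberg adjustment over 18194 genes. The B-statistic used polynomials of age with a prior share of 0.01. Pairs of members were tested by permutation (100000 resamples, numpy 2.4.6). The fit was tested on simulated data. Labels name biological replicates, and mice of an age came from several litters.

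Every member was named, and from each other list up to 4 genes of smallest F-test p, with exceptions said. The members and lists were chosen with earlier results of these data known. Alternatives covered the probe set rule, scaling, weights, prior, replicate block, covariates and left-out arrays. Same-numbered mice did not deviate together (median correlation of deviations -0.04 over 50 pairs), so no block was used.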

Additional observations from a re-analysis of the deposited data

Results flagged for a closer look

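The 5 mice of each age were screened for a single value far from the other 4, for each of the 9 measured members at each of 5 ages. Of 45 such groups, 7 held one. The cut-off is passed by about 1 in 20 groups of independent, normally spread values, which groups from shared arrays need not be. The share of such groups over all genes was not computed, so the count does not set the members apart. Sox2 read 2.50 in 16-week mouse 5, with the other 4 at 5.47 to 6.58, and 2.69 in 20-week mouse 3, with the others at 5.85 to 6.70. Spdef read 5.64 in the same 20-week mouse, with the others at 8.54 to 9.02, and Runx1 read 3.79 there, with the others between 3.61 and 3.65. In both mice sublingual products were low as well, and the part of gland makeup in these values was not tested. Etv5 read 3.85 in 4-week mouse 2 (others 4.21 to 4.22), 4.38 in 12-week mouse 1 (others 4.18 to 4.21) and 3.15 in 20-week mouse 5 (others 4.14 to 4.31). In these groups the other 4 mice lay within 0.2 of each other.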

How the results depend on the processing

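On the deposited values the count of members past the threshold was 0, 1, 0 and 1 at 8, 12, 16 and 20 weeks against 4 weeks, 0 between successive ages, 0 by the F-test and 0 by the B-statistic. With the brightest probe set per gene it was 2 at 12 weeks, 2 at 16 weeks and 1 by the F-test, and with probe sets tested singly 2, 3 and 1. Beside these, 1501, 686 and 903 of all genes passed with the brightest probe set, and 1730, 870 and 1051 of all probe sets singly. Quantile normalization gave 1 at 8 weeks, 2 at 16 weeks, 1 by the F-test and 1 by the B-statistic, with Sox10 lower at 12 weeks and Spdef lower at 20 weeks in place of Elf3. Of all genes, 606 and 1163 then passed at 8 and 12 weeks and 531 by the B-statistic. The upper quartile as a covariate gave 1 at 8 weeks, 2 at 12 weeks (Sox10 and Ehf lower), 3 at 16 weeks, 1 by the F-test and 1 by the B-statistic. With that covariate 373 and 1031 of all genes passed at 8 and 12 weeks and 554 by the B-statistic. Array weights, under which 20-week mouse 3 had a weight of 0.016, gave 1, 3, 4 and 2 at the 4 ages, 3 between successive ages, 6 by the F-test and 1 by the B-statistic. Under these weights 1698 of all genes passed between successive ages and 1419 by the B-statistic. Elf3 at 20 weeks did not pass with a trend and robust prior (count 0, adjusted p 0.0855), with the replicate block (count 0, adjusted p 0.0514) or with only the 2 ages compared (count 0, adjusted p 0.343), and at 12 weeks not with only the 2 ages compared (count 0, adjusted p 0.0604) or with the upper quartile (0.0504). Leaving out 1 mouse gave 0 to 1 at 12 weeks, 0 to 2 at 16 weeks, 0 to 1 at 20 weeks, 0 to 1 by the F-test and 0 to 1 by the B-statistic. Where that mouse was 20-week mouse 3, the counts over all genes were 3017, 1335, 1617, 2193 and 472 in the same order. Without 4-week mouse 1, Elf3 also passed at 16 weeks (0.41, adjusted p 0.022). Leaving out both mice low in sublingual products, chosen after seeing the data, gave 3 at 16 weeks and 1 by the F-test, beside 1145 and 2590 of all genes. The parotid and leukocyte levels as covariates, also chosen then, changed no count. Over all genes, the 618, 483 and 848 that passed at 16 weeks, at 20 weeks and by the F-test became 1147, 1097 and 1367 after quantile normalization, 1531, 1473 and 1692 with the upper quartile, and 3615, 6533 and 6866 with array weights, and the 411 and 1276 at 8 and 12 weeks became 2354 and 9980 with the weights and 180 and 2468 with only the 2 ages compared. That last setting left 204 at 16 weeks and 47 at 20 weeks. The parotid covariate left 245 at 8 weeks. Without both mice low in sublingual products 1188, 2996, 1145 and 1646 passed at the 4 ages. Directions turned only for differences that missed the threshold. Ehf read 0.061 at 16 weeks and 0.22 at 20 weeks with the brightest probe set, -0.16 at 8 weeks after quantile normalization, -0.42 there with the upper quartile, -0.034 there with the parotid level, and 0.008 at 20 weeks with array weights. Runx1 read -0.026 and -0.11 at 8 and 12 weeks over all its probe sets, and -0.023 and -0.002 with array weights. Sox2 at 12 weeks read -0.31 after quantile normalization, -0.42 with the upper quartile and -0.005 with the leukocyte level, and at 8 weeks 0.033 with the parotid level. Elf3 at 8 weeks read -0.031 after quantile normalization. With array weights Bhlha15, Sox10 and Etv5 at 20 weeks read 0.27, 0.035 and 0.056. With 1 mouse left out, Sox2 ran from -0.21 to 0.15 at 8 weeks and from -0.14 to 0.23 at 12 weeks, Runx1 from -0.039 to 0.062 and from -0.018 to 0.05, and Sox9 from -0.18 to 0.018, from -0.16 to 0.038 and, at 20 weeks, from -0.14 to 0.063. At 20 weeks Bhlha15 ran from -0.27 to 0.093, Sox10 from -0.31 to 0.005 and Etv5 from -0.20 to 0.091. Of all single differences of members, 382 kept direction and side of the threshold under the alternatives, 25 newly passed, 7 were lost and 18 turned, and with 1 mouse left out these were 867, 5, 7 and 21. The cause of these changes was not tested. For Etv5 and Runx1, 1 of 3 and 3 of 6 probe sets were expressed, which limits what could be seen for them.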
